A study of Mus musculus with 12 samples.

Results

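Lymphocytes hold antigen receptor signalling in check with a small set of enzymes and adaptors that act on the receptor and on the first kinases behind it. The 10 genes described here encode such brakes: the kinase Csk and its membrane anchor Pag1, the phosphatases Ptpn22 and Ptpn6, the suppressors of receptor signalling Ubash3a and Ubash3b, the ubiquitin ligases Cbl and Cblb, and the Src-like adaptors Sla and Sla2. They were chosen by name with earlier results of these data known, as probe sets that map to exactly one of these symbols. All 10 genes were found, on 25 of the 45037 probe sets, among 18193 genes in all. Each gene is represented by the one of its probe sets with the highest mean signal over the 12 arrays, and its other probe sets serve as a check.

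The brakes work in layers. Csk phosphorylates an inhibitory tyrosine of the kinases Lck and Fyn, and Pag1 and Ptpn22 both bind Csk. Phosphatases then remove activating phosphates from Lck, from Zap70 and from the receptor chains, and the Cbl ligases mark receptor chains and kinases with ubiquitin. The Sla adaptors lower the amount of receptor at the surface in cooperation with Cbl. Several of the genes come as paralog pairs, and in mice the loss of Cblb lets T cells be activated without costimulation.

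The cells came from whole lymph nodes of P14-TCR mice, whose transgenic receptor recognises the viral peptide gp33-41 on MHC class I, so that all 4 groups carry this receptor. The groups were PKD2-null cells stimulated with the peptide for 4 h at 62.5 ng/ml, PKD2-null cells cultured for 4 h without it, stimulated wild-type cells and unstimulated wild-type cells, with 3 arrays each. PKD2 is protein kinase D2, a kinase activated by diacylglycerol downstream of the antigen receptor, and the study asked what its loss does to the transcriptional response of naive T cells. Each genotype had 3 mice, and a stimulated and an unstimulated array with the same sample number were taken as 1 mouse. Neither the age of the mice nor how the null allele was made is given in the sources used here. The sources used here name no sort of the cells, so a signal is an average over T cells, B cells and others, and fewer cells of a type cannot be told apart from less RNA per cell.

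Signals are log2 values as the authors deposited them, between 2.43 and 15.07, with array medians of 4.66 to 4.72. The number of arrays limits the precision. Prkd2, the deleted gene, had signals of 5.60, 5.47 and 5.36 in stimulated null cells against 8.16, 8.30 and 8.52 in stimulated wild-type cells. Without peptide it had 6.33, 5.87 and 5.80 in null cells against 10.17, 10.34 and 9.99 in wild-type cells, and each array matched its labelled genotype. No fold is given, since the null signals lie in the range of dim probe sets. Markers of T cells averaged 10.73 to 11.21 over the 12 arrays (8 genes), an average over markers that moved in both directions. With peptide 1 of these 8 rose (Cd5) and 2 fell in null cells, against 12.5% and 19% of the brightest probe sets of each gene. In wild-type cells 2 rose, Cd5 among them, and 3 fell, against 15.1% and 20.4% (adjusted p under 0.05). Markers of B cells (13 genes) were present too, and their mean level was 8.61 to 9.34 in stimulated null, 9.21 to 9.94 in unstimulated null, 8.10 to 8.27 in stimulated wild-type and 8.76 to 8.85 in unstimulated wild-type cells. In both conditions the second null mouse had the highest level of B cell markers, 9.34 and 9.94. The differences of Csk and Ptpn6 between the genotypes in stimulated cells are given with and without that mouse, an exclusion chosen after the data were seen. The other stimulated null arrays, at 8.69 and 8.61, still lay above all stimulated wild-type arrays. Leaving that mouse out therefore does not even out the B cell markers between the genotypes. Myeloid markers (12 genes) averaged 6.65 to 7.78 on the arrays, and 0 of 12 passed between the genotypes. NK cell markers (5 genes) averaged 6.74 to 7.72, and 1 of 5 was lower in stimulated null cells, where 1.18% of all probe sets passed. The lowest marker was Pax5 among the B cell genes (5.12 to 5.50 as group means), Itgam among the myeloid genes (3.75 to 3.99) and Ncr1 among the NK genes (3.73 to 3.95). The actin probe sets, whose 3′ minus 5′ difference grows as RNA degrades, gave 0.20 ± 0.02 with peptide and 0.28 ± 0.07 without in null cells, against 0.21 ± 0.03 and 0.28 ± 0.02 in wild-type cells (SD, n = 3 each).

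The signals of the 10 genes moved in both directions with antigen. In null cells 4 genes rose with peptide (Ptpn22, Ptpn6, Ubash3b and Sla), 4 fell (Csk, Pag1, Ubash3a and Sla2) and 2 did not pass the test (Cbl and Cblb), at an adjusted p under 0.05 over all probe sets. In wild-type cells the same 4 rose, 5 fell, now with Cbl, and 1 did not pass (Cblb). Across all probe sets 11% rose and 13.8% fell in null cells, and 12.8% rose and 16.2% fell in wild-type cells. Among the brightest probe sets of each gene 12.5% rose and 19% fell in null cells, and 15.1% rose and 20.4% fell in wild-type cells. The values with and without peptide did not overlap for 8 of 10 genes in null cells and 10 of 10 in wild-type cells, against 35.3% and 39.9% of all probe sets. The median change of the 10 genes was 0.02 in null and -0.14 in wild-type cells, against -0.01 and 0.01 over all probe sets. The median size of the change was 0.72 in null and 1.00 in wild-type cells, against 0.15 and 0.17 over all probe sets. The 10 probe sets used were brighter than 78.7% (Ubash3a) to 98.6% (Ptpn22) of all probe sets. Shares and medians over all probe sets, here and below, include many dim ones, and no set of equal brightness was compared.

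**Figure D1:**
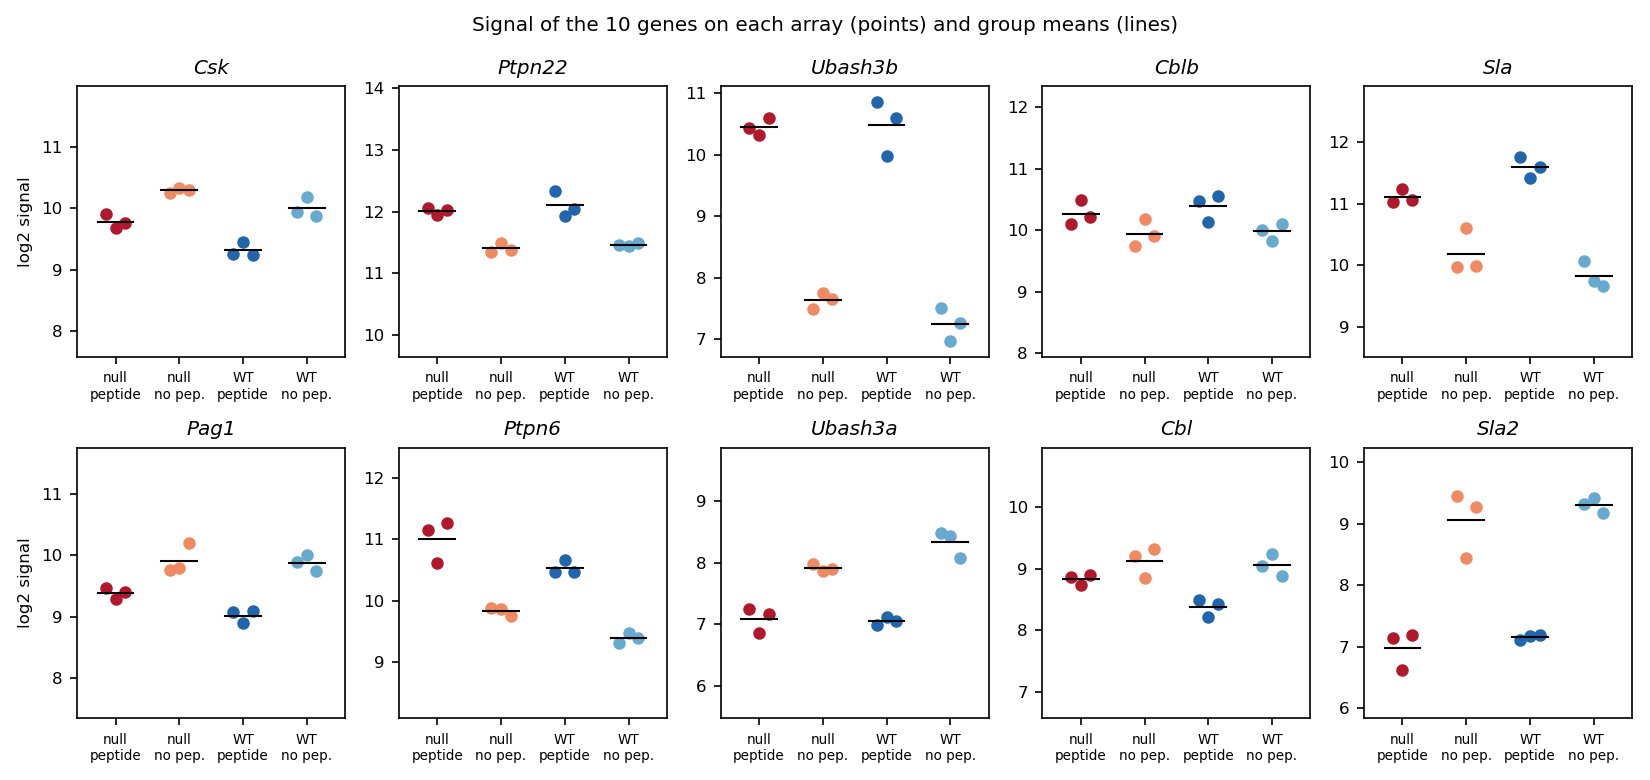
Log2 signal (y axis, each panel spanning the same number of log2 units) of the 10 genes on each of the 12 arrays, in stimulated and unstimulated PKD2-null and wild-type (WT) cells; points are arrays and lines are group means of 3. Ubash3b sits near 10.4 to 10.5 on average in both stimulated groups and at 7.63 and 7.25 in the unstimulated ones, while its paralog Ubash3a and the adaptor Sla2 run the other way.

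The kinase Csk and its anchor both fell with peptide. Csk had signals of 9.90, 9.68 and 9.76 in null cells with peptide and 10.24, 10.33 and 10.30 without. In wild-type cells they were 9.25, 9.45 and 9.24 with peptide and 9.94, 10.18 and 9.87 without. The stimulated values lay below the unstimulated ones in both genotypes without overlap, and among stimulated cells the 3 null values lay above the 3 wild-type values. Csk fell by 0.51 in null cells (SE 0.101, adjusted p = 0.00205) and fell by 0.68 in wild-type cells (adjusted p = 0.000168), which is 1.42-fold and 1.60-fold lower.

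Pag1, the adaptor that recruits Csk to the membrane, had signals of 9.47, 9.29 and 9.40 with peptide and 9.76, 9.79 and 10.20 without in null cells. In wild-type cells they were 9.07, 8.90 and 9.09 with peptide and 9.89, 10.00 and 9.75 without. Again no stimulated array reached an unstimulated one of its genotype. Pag1 fell by 0.53 in null (SE 0.121, adjusted p = 0.00562) and fell by 0.86 in wild-type cells (adjusted p = 0.000108). The 3 other probe sets of Pag1 were far dimmer, with means of 4.31 to 6.49 in the 4 groups, and did not share the fall: 1 of them rose by 0.47 in wild-type cells (adjusted p = 0.0055), and the other 2 did not pass. The fall of Pag1 therefore rests on its brightest probe set.

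Ptpn22 and Ptpn6 both rose with peptide. Ptpn22, which acts on Lck and Zap70, had signals of 12.06, 11.95 and 12.03 with peptide and 11.34, 11.49 and 11.38 without in null cells. The wild-type signals were 12.34, 11.93 and 12.04 with peptide and 11.46, 11.44 and 11.49 without. In both genotypes every stimulated array lay above every unstimulated one. Ptpn22 rose by 0.61 in null (SE 0.101, adjusted p = 0.000533) and by 0.64 in wild-type cells (adjusted p = 0.000283), or 1.53-fold and 1.56-fold. The difference of these changes was -0.03 with a 95% interval from -0.34 to 0.28.

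Ptpn6 encodes SHP-1, a phosphatase with SH2 domains that binds inhibitory receptors of T cells, B cells and myeloid cells. Its signals were 11.15, 10.61 and 11.27 with peptide and 9.88, 9.87 and 9.75 without in null cells, against 10.46, 10.66 and 10.47 with and 9.31, 9.48 and 9.40 without in wild-type cells. Ptpn6 rose by 1.18 in null cells (SE 0.143, adjusted p = 4.43e-05) and by 1.13 in wild-type cells (adjusted p = 4.23e-05), 2.26-fold and 2.19-fold. Its other probe set, of a kind that can bind further transcripts, rose by 1.17 and 0.87. Of 13 B cell markers, 5 fell with peptide and 8 did not pass in null cells, and 8 fell and 1 rose in wild-type cells, against 19% and 20.4% of the brightest probe sets that fell. Their part in the change of Ptpn6 was not tested.

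The Ubash3 pair split in opposite directions. Both paralogs encode proteins with a histidine phosphatase domain that bind Cbl, and the product of Ubash3b (Sts-1) is the stronger phosphatase and acts on Zap70 and Syk. The promoters of this pair are shown because these paralogs moved oppositely. Each run is the 250 bases before an annotated start in RefSeq (GRCm38.p6), 5′ to 3′ on the strand of the gene, and capitals mark the letters GGAAA, the core bound by NFAT factors, on either strand (read as TTTCC where they lie on the opposite one).

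Ubash3b, upstream start, chr9:41158063-41158312, minus strand: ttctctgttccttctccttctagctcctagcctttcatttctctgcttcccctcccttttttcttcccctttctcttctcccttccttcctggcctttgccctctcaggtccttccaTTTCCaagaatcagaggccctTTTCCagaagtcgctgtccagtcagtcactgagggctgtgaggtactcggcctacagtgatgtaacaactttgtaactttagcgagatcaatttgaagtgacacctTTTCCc

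Ubash3b, downstream start, chr9:41079507-41079756, minus strand: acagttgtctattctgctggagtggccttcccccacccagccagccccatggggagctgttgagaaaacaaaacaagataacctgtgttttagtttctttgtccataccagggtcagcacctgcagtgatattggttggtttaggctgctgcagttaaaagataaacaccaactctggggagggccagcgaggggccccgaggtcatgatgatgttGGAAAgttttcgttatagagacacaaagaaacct

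Ubash3a, chr17:31207816-31208065, plus strand: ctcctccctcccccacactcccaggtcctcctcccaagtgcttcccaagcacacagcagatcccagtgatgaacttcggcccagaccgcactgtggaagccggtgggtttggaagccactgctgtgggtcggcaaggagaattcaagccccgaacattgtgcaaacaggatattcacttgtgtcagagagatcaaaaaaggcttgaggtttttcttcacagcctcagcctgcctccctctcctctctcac

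The upstream start of Ubash3b holds 3 such cores and the downstream start 1, and the window of Ubash3a holds 0. Among the other genes that rose, the starts of Ptpn22 hold 0 and 1 and that of Ptpn6 holds 1. Among the other genes that fell, the starts of Csk hold 3 and 1, that of Cbl, which fell in wild-type cells, 3 and that of Sla2 2. Cblb, which did not pass, has 2. Promoter sequences were found for 8 of the 10 genes, with 11 starts. Of these, 9 hold at least 1 core, against 55.6% of 32851 mouse promoters. The AP-1 letters TGANTCA, searched on both strands as well, occur in 0 of the 11 starts and in 6.75% of all promoters. A match describes letters and is no site of binding, and no match says only that these letters are not in this window.

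Ubash3b had the largest rise of the set. Its signals were 10.43, 10.32 and 10.59 with peptide and 7.49, 7.75 and 7.65 without in null cells. In wild-type cells they were 10.86, 9.98 and 10.59 with peptide and 7.51, 6.97 and 7.27 without. Every stimulated array stood more than 2 log2 units above every unstimulated one. Ubash3b rose by 2.81 in null cells (SE 0.196, adjusted p = 5.18e-07) and by 3.23 in wild-type cells (adjusted p = 8.99e-08), 7.03-fold and 9.36-fold. Both other probe sets gave the same picture, with rises of 2.76 and 2.81 in null and 3.41 and 3.50 in wild-type cells.

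Ubash3a (Sts-2), the paralog found mainly in lymphocytes, had signals of 7.25, 6.86 and 7.16 with peptide and 7.98, 7.87 and 7.89 without in null cells. In wild-type cells the signals were 6.99, 7.11 and 7.05 with peptide and 8.48, 8.43 and 8.07 without. The stimulated groups overlapped each other, while without peptide the 3 null values lay below the 3 wild-type values. Ubash3a fell by 0.83 in null (SE 0.123, adjusted p = 0.000229) and fell by 1.28 in wild-type cells (adjusted p = 4.33e-06). On its other, dimmer probe set the wild-type change was -1.31 (adjusted p = 0.00294), and the null change of -0.72 did not pass (adjusted p = 0.0888).

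**Figure D2:**
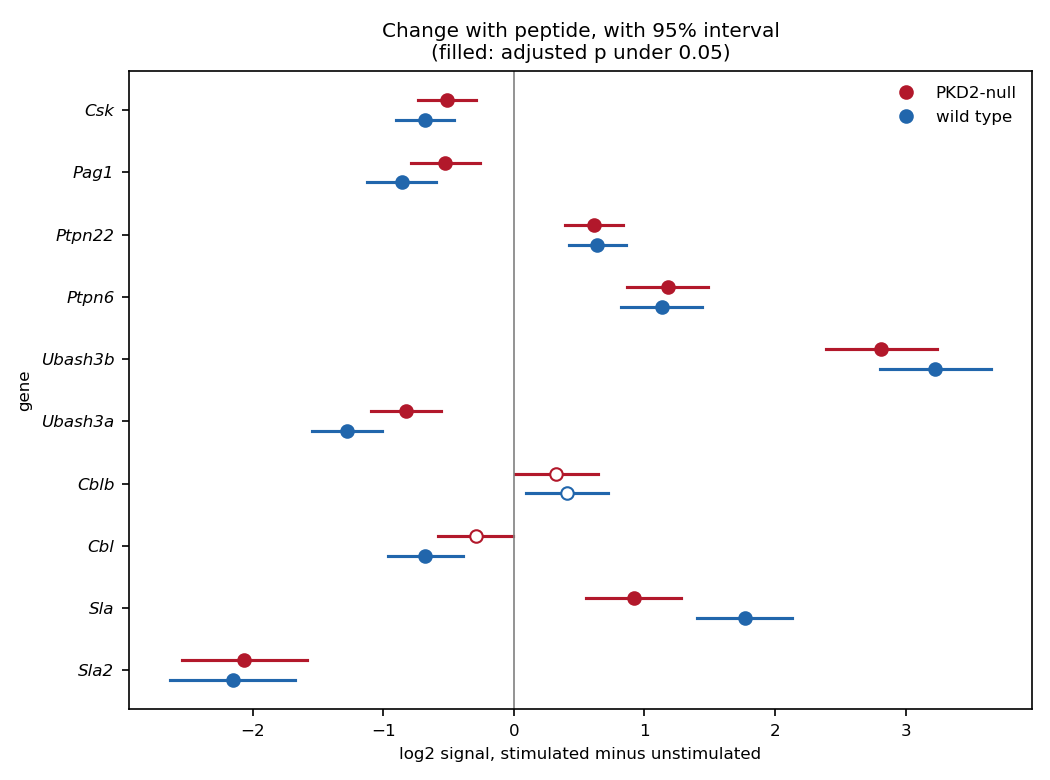
Change of the log2 signal with peptide (x axis, stimulated minus unstimulated) for the 10 genes in PKD2-null and wild-type cells; points are limma estimates from 3 arrays per group, bars are 95% intervals and filled points passed the test. Ubash3b stands furthest to the right (2.81 in null and 3.23 in wild type) and Sla2 furthest to the left (-2.06 and -2.15), and within each paralog pair the genes lie on opposite sides of 0.

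In the Cbl pair, Cbl fell in wild-type cells, and no other change on the brightest probe sets passed. Cbl, the founding member of the ligase family, had signals of 8.87, 8.73 and 8.90 with peptide and 9.21, 8.85 and 9.32 without in null cells, where the groups overlapped. In wild-type cells they were 8.50, 8.22 and 8.42 with peptide and 9.05, 9.24 and 8.89 without, with no overlap. Cbl fell by 0.68 in wild-type cells (SE 0.132, adjusted p = 0.00143), while the null change of -0.29 did not pass (adjusted p = 0.146). Without the unstimulated array of the second null mouse, the null change was -0.43 and passed (adjusted p = 0.023). It was the 1 of 17 alternatives in which the null change of Cbl passed, with adjusted p from 0.023 to 0.65 over all 17.

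On the second probe set of Cbl the signals were 8.47, 8.41 and 8.42 in stimulated null cells and 8.52, 8.27 and 8.88 in unstimulated null cells. They were 7.77, 7.37 and 7.76 in stimulated and 8.63, 8.44 and 8.53 in unstimulated wild-type cells, so the 3 stimulated wild-type arrays stood apart from the other 9. The wild-type change there was -0.90 (adjusted p = 0.000362) and the null change -0.12 (adjusted p = 0.65). The dimmest probe set, with means of 5.77 to 6.00, did not pass in either genotype.

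Cblb, the ligase that sets the need for costimulation, had signals of 10.11, 10.49 and 10.21 with peptide and 9.74, 10.18 and 9.91 without in null cells. The wild-type signals were 10.48, 10.14 and 10.55 with peptide and 10.01, 9.83 and 10.11 without. The lowest stimulated wild-type array thus lay just above the highest unstimulated one, and the null groups overlapped. Its changes of 0.33 in null (SE 0.145, adjusted p = 0.138) and 0.41 in wild-type cells (adjusted p = 0.0538) did not pass. Within mice the change was 0.37, 0.31 and 0.30 in the null animals and 0.47, 0.31 and 0.43 in the wild-type animals. With the mouse as a fixed block Cblb passed in both genotypes (adjusted p = 0.0118 in null and 0.00292 in wild type), and with the mouse as a random block in wild type alone (adjusted p = 0.0199). Over 17 alternatives the adjusted p ran from 0.0118 to 0.4 in null and from 0.00292 to 0.218 in wild-type cells. Without the stimulated array of the second wild-type mouse the wild-type change was 0.53 and passed (adjusted p = 0.0185). Its 2 other probe sets passed in wild-type cells, with rises of 0.54 and 0.84, and not in null cells (0.31 and 0.62).

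The Sla pair also split. Sla (SLAP) and Sla2 (SLAP-2) are built like Src kinases without the kinase domain. Sla had signals of 11.03, 11.23 and 11.05 with peptide and 9.97, 10.60 and 9.99 without in null cells. In wild-type cells they were 11.76, 11.41 and 11.60 with peptide and 10.07, 9.74 and 9.66 without. All stimulated arrays exceeded all unstimulated ones, and the 3 stimulated null arrays lay below the 3 stimulated wild-type arrays. Sla rose by 0.92 in null cells (SE 0.167, adjusted p = 0.0011) and by 1.77 in wild-type cells (adjusted p = 3.65e-06), 1.89-fold and 3.41-fold.

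Among the remaining probe sets of Sla, 2 rose by 1.06 and 1.00 in null and by 2.03 and 1.79 in wild-type cells. The last one, the dimmest, went the opposite way and fell by 0.73 in null (adjusted p = 0.0206) and fell by 1.04 in wild-type cells (adjusted p = 0.00182). Its signals were 5.84, 5.91 and 5.80 in stimulated null cells against 5.04, 4.47 and 5.03 in stimulated wild-type cells. Which transcript this probe set measures was not tested.

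Sla2, the other adaptor, had signals of 7.14, 6.63 and 7.20 with peptide and 9.45, 8.44 and 9.27 without in null cells, against 7.11, 7.18 and 7.19 with and 9.33, 9.42 and 9.18 without in wild-type cells. The second null mouse was the lowest of its group in both conditions on this probe set, and the middle one in both on the other probe set of Sla2. Sla2 fell by 2.06 in null (SE 0.220, adjusted p = 1.59e-05) and fell by 2.15 in wild-type cells (adjusted p = 7.07e-06), 4.18-fold and 4.45-fold lower. Its other probe set fell by 2.46 and fell by 2.53. The Sla2 promoter is shown as that of the largest fall, in the same layout as for the Ubash3 pair, and holds 2 of the GGAAA cores.

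Sla2, chr2:156887222-156887471, minus strand: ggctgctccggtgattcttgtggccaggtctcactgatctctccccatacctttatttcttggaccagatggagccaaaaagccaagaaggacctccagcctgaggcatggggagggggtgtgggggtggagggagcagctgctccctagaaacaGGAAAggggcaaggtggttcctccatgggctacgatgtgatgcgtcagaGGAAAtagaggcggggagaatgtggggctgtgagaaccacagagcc

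**Figure D3:**
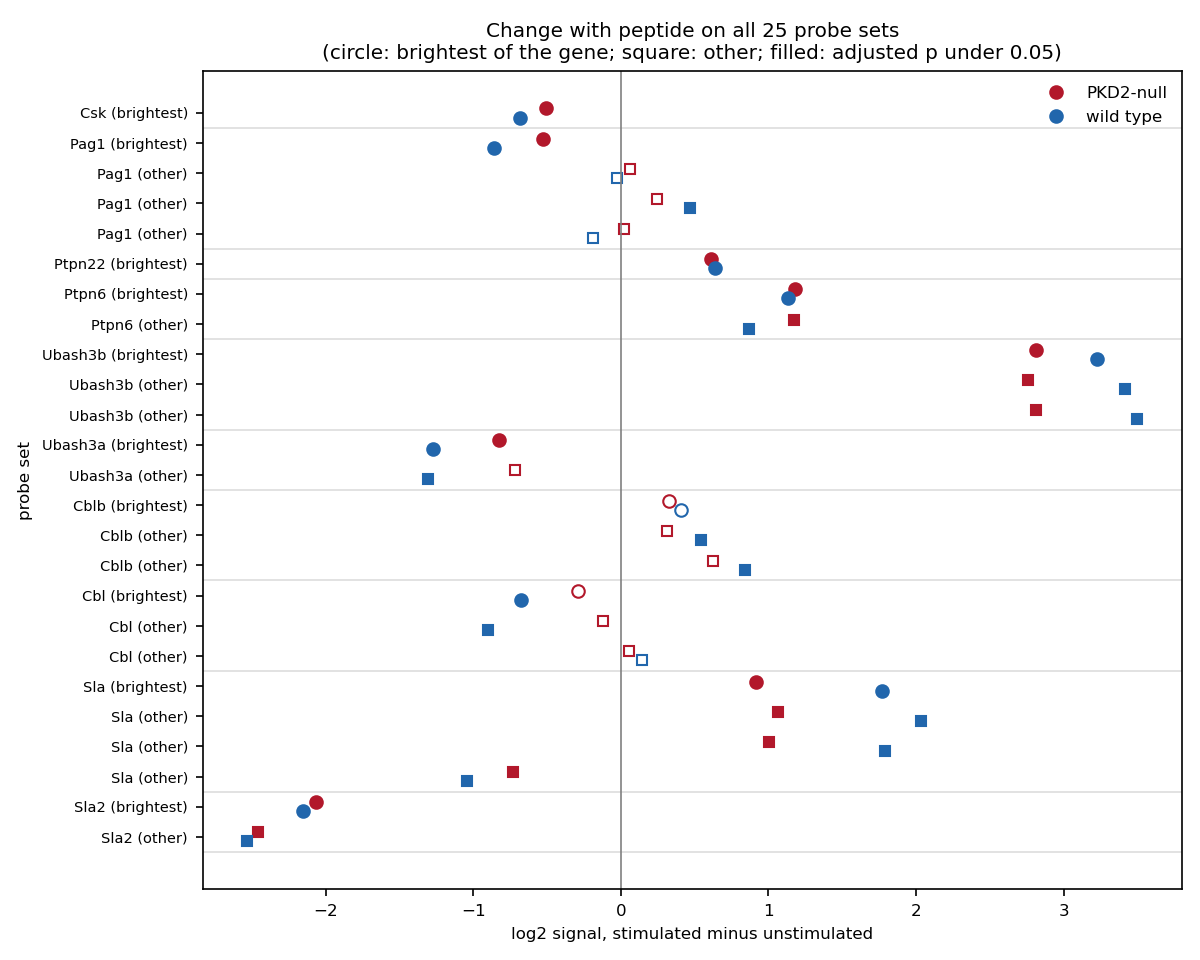
Change of the log2 signal with peptide (x axis) on all 25 probe sets of the 10 genes, in PKD2-null and wild-type cells; circles are the brightest probe set of each gene, squares the others, and filled symbols passed the test. The probe sets of Ubash3b, Ubash3a, Cblb, Ptpn6 and Sla2 share one direction per gene, whereas those of Sla, Cbl and Pag1 include one or more that lie on the other side of 0.

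The next question was whether the brakes differ between PKD2-null and wild-type cells. By limma, 0 of the 10 passed in stimulated cells, where 5 had an unadjusted p under 0.05 and 1.18% of all probe sets passed. In unstimulated cells 0 passed as well, where 4 had an unadjusted p under 0.05 and 0.0377% of all probe sets passed. The values of the genotypes did not overlap for 4 of 10 genes with peptide (Csk, Pag1, Cbl and Sla) and 3 of 10 without (Csk, Ptpn6 and Ubash3a), against 20.4% and 13.8% of all probe sets. Without peptide the genotypes did overlap on the other probe set of Ptpn6 and on that of Ubash3a. The differences ran from -0.49 (Sla) to 0.48 (Ptpn6) with and from -0.41 (Ubash3a) to 0.44 (Ptpn6) without peptide. Their 95% intervals reached 0.22 to 0.48 to either side, which limits the differences that these arrays could show.

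Csk came closest in stimulated cells, 0.46 higher in null (SE 0.101, 95% interval 0.24 to 0.69, adjusted p = 0.0502). It passed in 7 of 18 alternatives, among them the fit with the mouse as a random block (adjusted p = 0.0448), with adjusted p from 0.0242 to 0.263 over all 18. Without the second null mouse the difference was 0.51 (adjusted p = 0.0475), and without the second wild-type mouse it was 0.53 (adjusted p = 0.0482). Both exclusions were chosen after the data were seen. Without peptide the difference was 0.29 (95% interval 0.07 to 0.51, adjusted p = 0.408). Cbl was 0.45 higher in stimulated null cells (95% interval 0.16 to 0.74, adjusted p = 0.133), and its second probe set passed at 0.80 (SE 0.146, adjusted p = 0.0269). The dim falling probe set of Sla passed as well, 1.00 higher in null (adjusted p = 0.0437), while the brightest one gave -0.49 (adjusted p = 0.193). Pag1 was 0.37 higher (95% interval 0.11 to 0.63, adjusted p = 0.175). Its other, far dimmer probe sets gave -0.18, -0.002 and 0.14 and did not pass.

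Ptpn6 was 0.48 higher in stimulated null cells (95% interval 0.17 to 0.79, adjusted p = 0.139) and 0.44 higher without peptide (adjusted p = 0.389). The stimulated array of the second null mouse had the lowest Ptpn6 and the highest B cell markers among stimulated null arrays. Without that mouse, an exclusion chosen after the data were seen, the stimulated difference was 0.68 and passed (adjusted p = 0.01). Over 19 alternatives the adjusted p of that difference ran from 0.01 to 0.468. On the other probe set of Ptpn6 the differences were 0.45 with peptide (adjusted p = 0.194) and 0.15 without (adjusted p = 0.85). B cell markers were higher in null cells in 3 of 13 with peptide (Ighm, Fcrla and Cd79b, named after their values were seen) and in 0 of 13 without, where the median difference was 0.66. Across all probe sets 1.18% passed with peptide and 0.0377% without. The part of B cells in the differences of Csk and Ptpn6 was not tested.

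**Figure D4:**
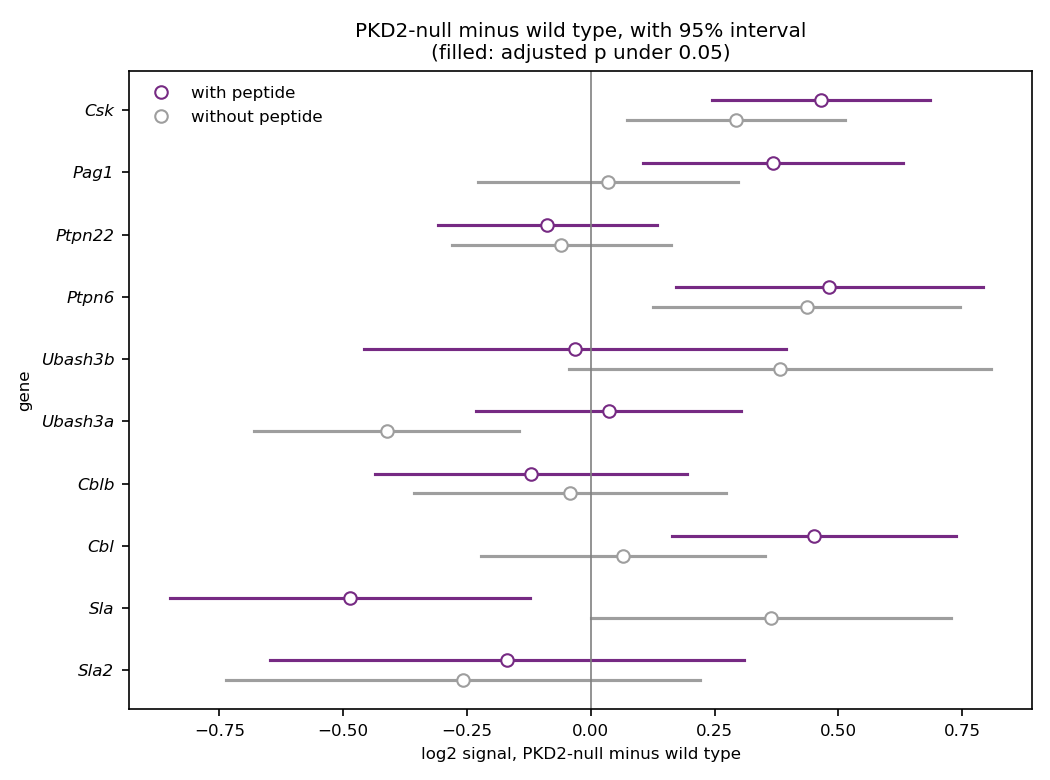
Difference of the log2 signal between PKD2-null and wild-type cells (x axis, null minus wild type) with and without peptide for the 10 genes; points are limma estimates from 3 arrays per group and bars are 95% intervals. None passed the test, and with peptide the intervals of Csk, Pag1, Ptpn6 and Cbl lie above 0 and that of Sla below it.

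The last comparison asked whether the change with peptide itself differed between the genotypes. It passed for 0 of the 10 genes, where 2 had an unadjusted p under 0.05 and 0.00222% of all probe sets passed. The 95% intervals reached 0.31 to 0.68 to either side. Sla had the largest difference: its rise within mice was 1.06, 0.63 and 1.06 in the null animals against 1.69, 1.67 and 1.94 in the wild-type animals. The groups of mice did not overlap, and the difference was -0.85 (95% interval -1.37 to -0.34, adjusted p = 0.482). The further Sla probe sets that rose gave differences of -0.97 and -0.79 (adjusted p = 0.455 and 0.629).

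For Ubash3a the change was -0.73, -1.02 and -0.73 in null mice against -1.49, -1.32 and -1.02 in wild-type mice, groups that touch at the second decimal, and the difference was 0.45 (adjusted p = 0.644). For Ubash3b it was 2.94, 2.57 and 2.93 in null against 3.34, 3.01 and 3.32 in wild-type mice, a difference of -0.41 (adjusted p = 0.809). For Cbl it was -0.33, -0.12 and -0.42 in null against -0.55, -1.01 and -0.47 in wild-type mice, a difference of 0.39 (adjusted p = 0.725), and 0.77 on the second probe set (adjusted p = 0.458). The changes of the 3 null and 3 wild-type mice did not overlap for 4 of 10 genes (Sla, Ubash3a, Ubash3b and Cbl), against 16.6% of all probe sets. The change was smaller in null than in wild-type cells for 9 of 10 genes, all but Ptpn6, against 61.2% of all genes, a count taken after the values were seen. The 61.2% is over all genes and not over genes with changes as large as those of the 10. Over all probe sets the median size was 0.15 in null and 0.17 in wild-type cells. For Ptpn22, Cblb and Sla2 the difference between the genotypes was only -0.03, -0.08 and 0.09 (adjusted p from 0.97 to 0.983).

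Other brakes outside the 10 genes moved in both directions too. Of 24 further brakes measured, such as inhibitory receptors, adaptors and phosphatases, 5 rose and 8 fell in null cells and 5 rose and 12 fell in wild-type cells. Among the brightest probe sets of each gene 12.5% rose and 19% fell in null cells, and 15.1% rose and 20.4% fell in wild-type cells. Cd5 and Cd6, receptors that dampen the antigen receptor, rose by 1.69 and 1.73 in null and by 1.88 and 1.58 in wild-type cells. Sit1, a transmembrane adaptor that binds Csk, fell by 1.37 in null and fell by 2.27 in wild-type cells, and Pstpip1, an adaptor of the PEST phosphatases, fell by 1.00 and fell by 1.53. The list's median change was -0.27 in null and -0.39 in wild-type cells, against -0.01 and 0.01 over all probe sets. In stimulated cells Lax1, an adaptor of lymphocytes, was 1.02 higher in null (adjusted p = 0.024) and Dusp22, a phosphatase that acts on Lck, was 0.69 lower (log2 difference -0.69, adjusted p = 0.018). These 2, named after their values were seen, were all of the 24 that passed there, and 0 passed without peptide. Across all probe sets 1.18% passed with peptide and 0.0377% without.

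The kinases, adaptors and receptor chains on which the brakes act split as well. Of 21 measured, 5 rose and 8 fell in null and 5 rose and 10 fell in wild-type cells, with medians of -0.16 and -0.26. The shares among the brightest probe sets were 12.5% and 19% in null cells and 15.1% and 20.4% in wild-type cells. Zap70, the kinase that Ubash3b acts on, rose by 2.16 in null and 2.17 in wild-type cells, and Lcp2 (SLP-76) rose by 2.19 and 1.80. Txk, a Tec family kinase, fell by 1.74 and fell by 1.29, and Pik3r1, a subunit of PI3 kinase that binds Cblb, fell by 1.02 and fell by 1.36. Syk, the kinase related to Zap70 that B cells use, was the 1 gene of the 21 that passed in stimulated cells and is named for that, 0.98 higher in null (adjusted p = 0.046), beside the B cell marker levels given above. Across all probe sets 1.18% passed there.

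Genes whose signals ran most like those of Ubash3b over the 12 arrays were Eif5b, Larp4, Slamf1, Naa15 and Azin1 (Pearson r from 0.995 to 0.996 among 18192 genes). Those most like Sla2 were Tnfaip8l1, Gtf2i, Cript, Tdrp and Pea15a (r from 0.992 to 0.995). The 12 arrays come from stimulated and unstimulated cells, and Ubash3b and Sla2 differ widely between these. Genes that share that contrast get a high r, so r is given as a description without a test. Among these genes the change with peptide differed in size: it was 3.57 in null and 4.25 in wild-type cells for Slamf1, and 0.73 and 0.95 for Azin1.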

How the data were processed

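Gene expression was measured on 12 Affymetrix arrays. The authors deposited log2 signals, made with Affymetrix Expression Console 1.1 per the submitters' processing notes. How they were normalized is not stated in these notes or in the labels. Of 45101 probe sets, 64 controls were left out, and gene symbols came from the platform annotation. The values were used as deposited. One model with a mean per group covered all 12 arrays (limma 3.58.1 under R 4.3.3, lmFit and eBayes, two-sided, 95% intervals from the moderated fit). P-values were adjusted by Benjamini and Hochberg over 45037 probe sets, and each adjusted p comes from this fit unless an alternative is named. An alternative that refits the model adjusts over the rows of its own fit. This main model has no block. It was tested on simulated data with arrays drawn independently, which cannot show how it handles 2 arrays of the same mouse. The sample titles number the arrays of each group, and arrays of a genotype with the same number were taken as 1 mouse. Deviations from the group means correlated by 0.116 to 0.577 within these mice and by at most 0.129 between mice. The mouse as a random or fixed block was therefore an alternative. Others were repeated quantile normalization, a minimum mean signal of 5, other probe sets of a gene, 1 probe set per gene, a variance trend, and leaving out arrays or mice. The members and lists were chosen with earlier results of these data known. All 10 members are named; of each list the 2 largest rises and falls in wild-type cells that passed, and for the largest rise and fall the 5 genes most correlated. Some listed genes are not reported here. Promoters came from RefSeq, and those of Sla and Pag1 were not used. P-values of the model without a block measure the spread of arrays within the groups, from 3 mice per genotype. They treat both arrays of a mouse as independent.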

Additional observations from a re-analysis of the deposited data

How the results depend on the processing

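Of 970 recomputed changes of single genes, 899 kept their direction and their side of the threshold, 21 passed the test only in the alternative, 4 no longer passed in the same direction, 45 that had not passed turned their sign without passing, and 1 that had passed turned. That 1 was Pag1 in null cells on its second brightest probe set, at 0.0614 (adjusted p = 0.851), against -0.53 on the brightest; in wild-type cells that probe set gave -0.0239. With the mean over all probe sets Pag1 did not pass either (-0.0488 in null and -0.151 in wild type). The number of the 10 genes that passed with peptide ran from 4 to 9 in null cells over 17 alternatives and from 7 to 10 in wild-type cells. The 4 came from the second brightest probe sets, which 8 genes have. Between null and wild-type cells without peptide, and in the difference of the changes, it was 0 in all 19 and 26 alternatives. In stimulated cells it was 0 and became 1 with the replicate block (mouse as a random block), the minimum mean of 5, the mean over all probe sets, 1 probe set per gene and the variance trend, each time by Csk, and 1 with the second brightest probe set by Cbl. Leaving out 1 array gave 0 to 1, the 1 being Ptpn6 without the second stimulated null array (0.68, adjusted p = 0.0113). Leaving out both arrays of a mouse, chosen after the data were seen, gave 1 (Csk) without the second wild-type mouse and 2 (Csk and Ptpn6) without the second null mouse. With the mouse as a block, Cblb and Csk gained calls as given in the results, and no call was lost. The causes were not tested. Without a detection call, dim probe sets such as those of Pag1 cannot be told from background.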
